A study of Danio rerio with 6 samples.

Results

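The genes described here encode the proteins of the sarcomere, the contractile unit of striated muscle: myosin heavy and light chains, sarcomeric actins, tropomyosins, troponins C, I and T, myosin-binding proteins, titin, nebulin, tropomodulins and leiomodins. They were chosen by name, as every gene whose symbol begins with a stem of these families, leaving out the mylk, mylip and tpmt genes. The rule found 85 genes of 36191 gene IDs in the tables. It also takes in the smooth-muscle and nonmuscle members of the same families, which work outside sarcomeres, and the protein kinase gene tnni3k. By lists of known muscle-type markers, 22 members were fast, 13 slow, 10 cardiac, 15 shared by striated muscles and 14 smooth or nonmuscle, while 11 were in no list. Of the 85, 76 had a mean of at least 1 FPKM (a level per transcript length and depth) and were tested.

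Total RNA labelled as liver was sequenced from wild-type AB zebrafish, 3 months old, in a group treated with graphene oxide (GO), a sheet-like carbon nanomaterial, and in a control group, with 3 libraries each. All libraries shared strain, genotype and age, and treatment was the only label that differed. The labels do not say whether a library came from 1 fish or several, or whether replicates were separate animals. The spread behind each p-value may thus be technical. The labels used give neither a dose nor a length of exposure. Triplets of values follow the replicate numbers 1, 2 and 3.

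In a sarcomere, thick filaments of myosin pull on thin filaments of actin. Calcium binds troponin C, which relieves the block that troponin I and tropomyosin place on actin, and troponin T ties the complex to tropomyosin. Titin acts as a spring, nebulin runs along the thin filament, and tropomodulins cap its pointed end. Fast fibres, slow fibres and heart muscle build the same machine largely from different paralogs, so the mixture of paralogs reflects the mixture of fibre types only in part. Paralogs of the same class can also differ from each other, as some did here. Hepatocytes have no sarcomeres, and in a liver the nonmuscle members and the smooth muscle of vessels are the usual source of these gene families.

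Depth was 10758979, 12614165 and 10774455 expected counts in the GO libraries and 9739760, 12998273 and 11586298 in the control libraries. A list of 20 hepatocyte markers summed to 516, 500.03 and 11399 CPM (counts per 1000000 counts of a library, scaled for composition) in the GO libraries, against 1106, 1077 and 10300.4 CPM in the control libraries. Replicate 3 was therefore 22.1 and 22.8 times the other GO libraries and 9.31 and 9.56 times the other control libraries in hepatocyte markers. Within that list, fabp10a, the liver fatty-acid binding protein, had 1.1, 1.02 and 119 CPM in the GO libraries and 1.58, 1.26 and 117 CPM in the control libraries. The gene rbp4 weighed heavily in the sums of replicates 1 and 2. There it had 344 and 334 CPM in GO and 479 and 468 CPM in control. The replicate 3 libraries of both groups stood apart from the others, so class results are given with and without them, and most genes named with the difference in replicates 1 and 2 and the values or difference in replicate 3. How they differ from the others is described and not tested, since there is 1 such library per group.

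The 85 genes took a large part of every library. They held 8.2%, 8.24% and 6.56% of the expected counts in the GO libraries, and 8.77%, 8.83% and 6.39% in the control libraries. In TPM (a level per transcript length that sums to 1000000 in a library) they were 7.44%, 7.44% and 5.16% of all transcripts in the GO libraries, and 7.32%, 7.31% and 4.98% in the control libraries. Sarcomere transcripts were abundant in all 6 libraries labelled as liver, and lower in the replicate 3 libraries, where hepatocyte markers were higher. In bulk RNA, fewer cells of a type and less RNA per cell cannot be told apart.

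Fast members made up most of this. In summed TPM, the 22 fast members had 47336, 47493 and 33997 in the GO libraries and 48676, 48554 and 33814 in the control libraries. The 15 shared striated members followed with 22522, 22299 and 12497 summed TPM in the GO libraries and 20436, 20544 and 10762 in the control libraries. Together these classes were 93.9%, 93.9% and 90.1% of the members' TPM in the GO libraries and 94.5%, 94.5% and 89.6% in the control libraries. Both classes were lowest in replicate 3 of either group.

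The slow and cardiac classes ran the other way. The 13 slow members had 1429.5, 1437 and 1848 summed TPM in the GO libraries and 1242, 1232 and 1891 in the control libraries. The tropomyosins tpm2 and tpm3 weighed heavily in this sum. In GO, tpm2 had 363, 373 and 578 TPM and tpm3 had 356, 363 and 451. In control they had 267, 277 and 604, and 292, 272 and 474. The troponin gene tnnc1b did not follow, with 357, 353 and 331 TPM in GO and 402, 394 and 351 in control. The 10 cardiac members had 217, 216 and 336 summed TPM in the GO libraries and 141, 137 and 346 in the control libraries. For both classes replicate 3 was the highest library of its group, and among replicates 1 and 2 the GO libraries lay above the control libraries. The 14 smooth or nonmuscle members were in the same order, with 716, 737 and 866 summed TPM in the GO libraries and 605, 601 and 828 in the control libraries. The 11 unclassed members hardly varied, with 2161, 2176 and 2051 summed TPM in the GO libraries and 2068, 2043 and 2124 in the control libraries.

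**Figure D1:**
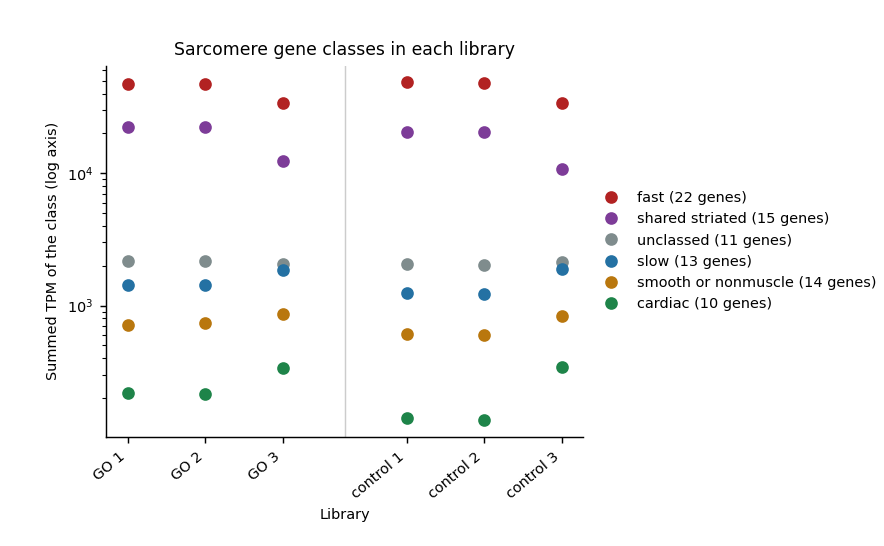
Summed TPM (log axis) of the members of each class in each of the 6 libraries, GO (graphene oxide) left and control right; each point is 1 library. Fast and shared striated genes are highest everywhere and lowest in replicate 3, while cardiac genes have 217, 216 and 336 TPM in GO and 141, 137 and 346 TPM in control.

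Whether graphene oxide changed these genes was first asked over all 6 libraries. No sarcomere gene was called by edgeR's quasi-likelihood test at a Benjamini-Hochberg adjusted p of 0.05, and none of the 19313 genes tested was (background 0.0%). At an unadjusted p below 0.05 there was 1 member of 76, or 1.32%, against a background of 2.27% of all genes. That member was tnnt2c, a troponin T gene, with 28.1, 25.7 and 22.5 CPM in the GO libraries and 13.9, 19.5 and 19.8 CPM in the control libraries. Its groups did not overlap, and the log2 difference was 0.52 ± 0.19 (SE; adjusted p = 1 and unadjusted 0.0336, edgeR). With the replicate number as a block, edgeR again called 0 members and 0 genes, while 22 members, or 28.9%, were under an unadjusted p of 0.05, beside 14.5% of all genes. DESeq2 called 7 of 25524 genes (0.0274%) and 0 members without the block. With it, DESeq2 called 63 genes (0.247%), among them mylpfb at a log2 difference of -0.38 (adjusted p = 0.00692) and the nonmuscle myosin gene myh9b at 0.57 (adjusted p = 0.024).

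Groups that do not overlap over all 6 libraries were rare and no commoner than among all genes. Of the 76 tested members, 5 had such values (6.58%), against 7.76% of all genes: tnnt2c and myh10 were higher in GO, beside 3.67% of all genes, and tnnc1b, tnnt1 and tnnt2d were lower in GO, beside 4.09%. These genes were singled out after their values were seen. The slow troponin C gene tnnc1b had 148, 146 and 144 CPM in the GO libraries against 193, 189 and 154 CPM in the control libraries, a log2 difference of -0.29 ± 0.13 (SE; unadjusted 0.0633, adjusted p = 1, edgeR). The slow troponin T gene tnnt1 had 11.2, 13.7 and 11.8 CPM in the GO libraries against 14.8, 14.4 and 17 CPM in the control libraries, a log2 difference of -0.33 ± 0.15. Its gap between the groups, 13.7 against 14.4 CPM, was under 1 CPM. The troponin T gene tnnt2d had 75.6, 74.2 and 89.9 CPM in the GO libraries against 91.4, 96.5 and 96.7 CPM in the control libraries, a log2 difference of -0.25 ± 0.12. The nonmuscle myosin gene myh10 had 201, 200.2 and 229 CPM in the GO libraries against 181, 171 and 189.6 CPM in the control libraries, a log2 difference of 0.22 ± 0.11.

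Without the replicate 3 libraries, many sarcomere genes differed, in both directions. Over the 4 libraries of replicates 1 and 2, edgeR called 52 of 76 members, or 68.4%, against 24.9% of all genes tested. Of these, 26 rose in GO, beside 12.9% of all genes, and 26 fell, beside 12%. Members were also more highly expressed than the average gene, with a median of 98.7 CPM against 16.4 CPM over all genes tested, and small differences pass the test more easily at high counts. The called members had a median absolute log2 difference of 0.31, against 0.42 over all called genes. At least 1.5-fold, 9 members rose, or 11.8% beside 4.86% of all genes, and 0 fell, beside 2.87%. These replicates resembled each other closely, with a common dispersion of 0.000716 against 0.166 over 6 libraries, so the adjusted p-values rest on a very small spread between 2 libraries per group.

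The direction of small differences depended on the scale. In the deposited TPM the median of all tested genes was itself 0.18 higher in GO on the log2 scale over replicates 1 and 2, against -0.002 in scaled CPM. On log2(TPM + 1) limma called 28 members over these libraries, 28 higher and 0 lower, and on log2(FPKM + 1) it called 13, with 13 higher and 0 lower. Differences are therefore given relative to the median gene, on the scaled CPM. The genes mylpfa, actc1b, mybphb, myhz1.1, myhz1.2, tnnt3a, tnnt1, ttn.1, ttn.2, neb, mybpc3, myl10, myl13, lmod3, tnni1c, tnni1d and tnnt2e had a negative log2 difference in CPM and a positive one in TPM, but all of these except tnnt2e, which was not called, lay below the median gene on both scales. Each of the 52 called members was on the same side of the median gene in CPM and in TPM. "Fell" of any of these means relative to the median gene.

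By class, the cardiac members moved most evenly. Beside each class, 12.9% of all genes rose and 12% fell. Of the 9 tested, 7 rose and 0 fell over replicates 1 and 2, with a median log2 difference of 0.52. Of 11 slow members, 6 rose and 1 fell, with a median of 0.13. Those that rose were myosin heavy chains and tropomyosins, while tnnc1b fell and tnni1c, tnni1d, tnnt1 and mybpc1 were not called. Of 21 fast members, 4 rose and 12 fell, with a median of -0.17, and of 14 shared striated members, 4 rose and 8 fell, with a median of -0.06. Of 12 smooth or nonmuscle members, 4 rose and 2 fell, with a median of 0.12, and of 9 unclassed members, 1 rose and 3 fell. The median over all genes tested was -0.002. Hepatocyte markers differed there too: of 18 tested, 0 rose and 14 fell in GO, with a median log2 difference of -1.66. That is larger in size than the median of any sarcomere class. Their part in these results was not tested.

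Replicate 3 did not repeat these class medians. In that pair of libraries the median log2 difference was -0.05 in the cardiac class, -0.10 in the slow, -0.04 in the fast, 0.21 in the shared striated and 0.02 in the smooth or nonmuscle class. Over all 6 libraries the medians were 0.18, 0.04, -0.10, -0.01 and 0.03. With replicate 3 as an interaction term, edgeR called a departure of the replicate 3 difference for 39 of 76 members, or 51.3%, against 14.2% of all genes. It was above the replicate 1 and 2 difference for 19, beside 6.63% of all genes, and below for 20, beside 7.59%. The spread in that test comes from replicates 1 and 2 alone, because replicate 3 is 1 library per group. Here too the members were more highly expressed, with a median of 98.7 CPM against 16.4 CPM over all genes tested. Small departures, such as the 0.147 of ttn.1, pass more easily at high counts, so the shares are not like for like. The difference kept one sign in all 3 pairs in 11 members that were higher in GO, beside 18.1% of all genes, and in 15 that were lower, beside 19.6%. Some called members kept a difference of similar size in replicate 3, with no departure called. Among them were mylpfb (-0.37, then -0.41), smyhc1 (0.13, then 0.14) and myl9b (0.23, then 0.27).

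**Figure D2:**
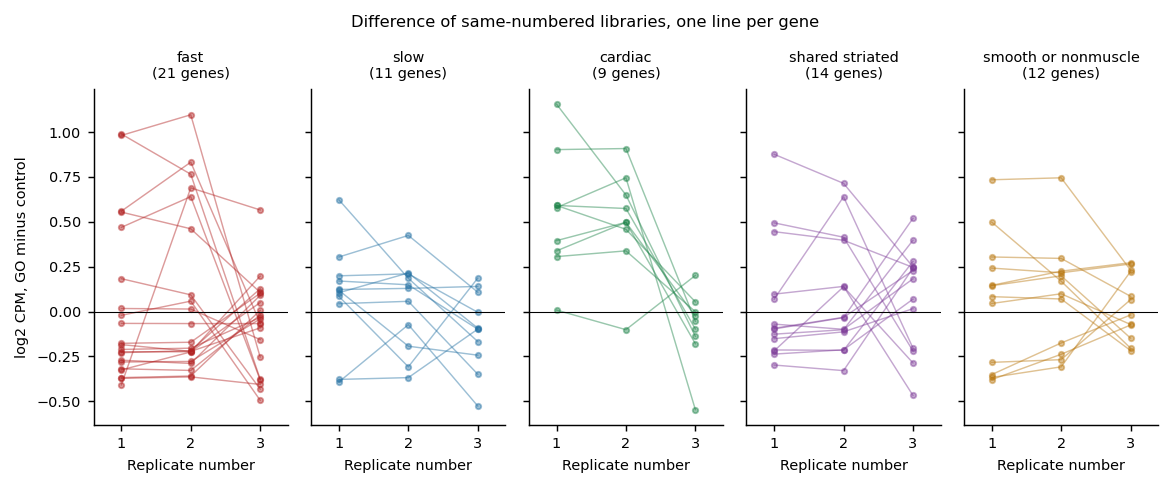
Difference of log2 CPM, GO minus control, between same-numbered libraries (x axis, replicate number), 1 line per tested gene, in 5 classes. The 9 cardiac genes lie mostly above 0 in replicates 1 and 2 and near 0 in replicate 3, with medians of 0.52 over replicates 1 and 2 and -0.05 in replicate 3.

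Myosin heavy chains, the motors of the thick filament, set the speed of a fibre. Fast chains were 93.1%, 93.1% and 87.6% of heavy-chain TPM in the GO libraries, and 94.5%, 94.6% and 88.5% in the control libraries. Slow chains were 4.27%, 4.3% and 7.67% in the GO libraries, and 3.57%, 3.54% and 7.1% in the control libraries. Replicate 3 of both groups therefore held the most slow and the least fast chain, and the gap between replicates was wider than that between groups. The fast chain myhz1.1 (gene ID 58142) was the highest of the 20 heavy chains in every library, with a mean of 2685 TPM. The fast paralogs myhz1.2 and myhz2 averaged 949 and 913 TPM. They sit in 1 cluster with myhz1.1, myhc4 and myha in the gene order of the GRCz12tu assembly, and their counts were not all whole, so the split of reads between them is uncertain.

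The leading chain, myhz1.1, had 14380.2, 14576 and 11097 CPM in the GO libraries, against 16255, 16405 and 10340.5 CPM in the control libraries. It fell in replicates 1 and 2, by a log2 difference of -0.17 ± 0.01 (SE), and was higher in GO in replicate 3. The neighbouring myhz2 had 4615, 4603 and 4684 CPM in the GO libraries and 4562, 4559.6 and 5217 CPM in the control libraries, a log2 difference of 0.01 ± 0.01 in replicates 1 and 2 that did not pass. The fast chain myhb behaved unlike both. It had 127, 125 and 341 CPM in the GO libraries, against 64.1, 58.4 and 407 CPM in the control libraries. In replicates 1 and 2 it rose by a log2 difference of 1.05 ± 0.06 (adjusted p = 3.83e-51, edgeR, n = 2 each), whereas in replicate 3 the difference was -0.25.

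The slow chain smyhc1 (gene ID 321552), expressed by slow fibres of the zebrafish, averaged 177 TPM, and its tandem neighbour smyhc2 47.5 TPM. The third gene of that row, smyhc3, stayed at 0.48 to 1.12 TPM and was not tested. Counts of smyhc1, smyhc2 and smyhc3 were not all whole, so the split of reads between them is uncertain. In the GO libraries smyhc1 had 756, 765 and 1333 CPM, against 694, 699.9 and 1209 CPM in the control libraries. It was higher in GO in each pair, with log2 differences of 0.12, 0.13 and 0.14, and rose in replicates 1 and 2 with an adjusted p of 5.01e-06. Between replicates it differed by more than between groups, and over 6 libraries the log2 difference was 0.13 ± 0.33. The 2 slow-type chains myh7ba and myh7bb also rose in replicates 1 and 2, with log2 differences of 0.38 and 0.20, against -0.17 and -0.00 in replicate 3.

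Among heart chains, the ventricular chain vmhc averaged 22.5 TPM and the vmhc-like gene beside it, vmhcl, 5.57 TPM. Counts of vmhc were 104, 109 and 152 CPM in the GO libraries, against 84.4, 86.3 and 152 CPM in the control libraries. Counts of vmhcl were 17.1, 18.7 and 57 CPM in the GO libraries, against 9.08, 9.88 and 59.1 CPM in the control libraries. Both rose in replicates 1 and 2, by log2 differences of 0.32 ± 0.06 and 0.91 ± 0.14. For both, replicate 3 was the highest library of each group and nearly equal between the groups. Counts of vmhc and vmhcl were not all whole, so the split of reads between them is uncertain. The atrial chain myh6 had 0.092, 0.471 and 13.2 CPM in the GO libraries and 0.739, 0.553 and 11.8 CPM in the control libraries. In replicates 1 and 2 it lay near the 0.231 to 0.308 CPM that 3 counts make, and it was not tested.

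**Figure D3:**
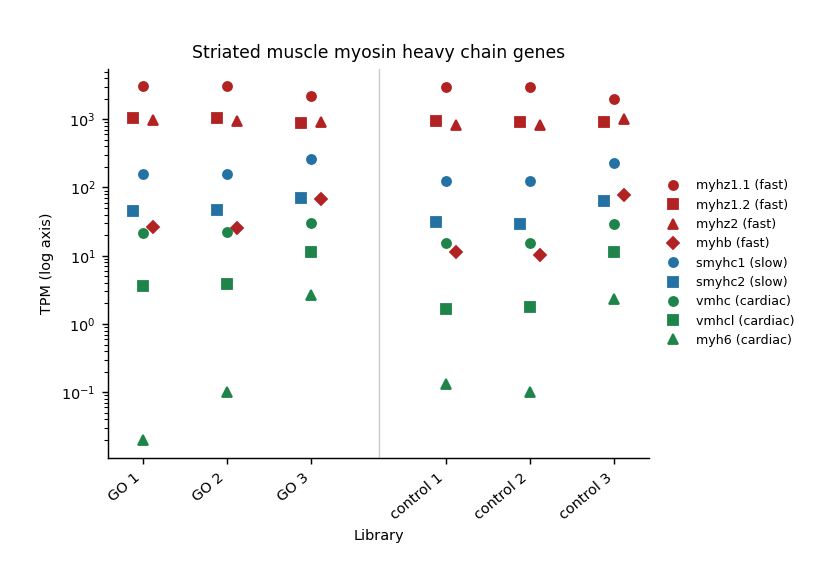
TPM (log axis) of 9 striated-muscle myosin heavy chain genes in each library, GO left and control right, coloured by class; points are shifted sideways where genes overlap. The order myhz1.1, then myhz1.2 and myhz2, then smyhc1 holds in all 6 libraries. The genes smyhc1, smyhc2, vmhc, myhb, vmhcl and myh6 are higher in both replicate 3 libraries than in the others.

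Light chains support the neck of myosin. Fast light chains were 90.1%, 89.7% and 86.1% of light-chain TPM in the GO libraries and 90.9%, 91% and 85.9% in the control libraries. The fast regulatory chain mylpfa (gene ID 30429) and the fast essential chain mylz3 (gene ID 58143) averaged 7171 and 7007 TPM, and their ranges over libraries overlapped. The second fast regulatory gene, mylpfb, and the essential myl1 followed with 3841 and 1236 TPM. All 4 fell in replicates 1 and 2.

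In the GO libraries mylpfa had 7213, 7341 and 5918 CPM, against 8352, 8455 and 6057 CPM in the control libraries, a log2 difference of -0.21 ± 0.01 in replicates 1 and 2. The levels of mylz3 were 4501, 4499 and 3285 CPM in the GO libraries, against 5276, 5233 and 3008 CPM in the control libraries, a log2 difference of -0.22 ± 0.01. These 2 chains parted in replicate 3, where mylpfa was lower and mylz3 higher in GO. The chain mylpfb had 1665, 1611 and 887 CPM in the GO libraries, against 2155, 2073 and 1176 CPM in the control libraries. It was lower in GO in all 3 pairs by nearly the same amount, with log2 differences of -0.37, -0.36 and -0.41. Its departure in replicate 3, -0.04 ± 0.03, did not pass (adjusted p = 0.543, edgeR), and the blocked edgeR fit gave -0.38 ± 0.06 with an adjusted p of 0.218. Without the block the difference over 6 libraries was -0.38 ± 0.33 (SE, unadjusted p = 0.296, edgeR) and was not called. Relative to mylpfa, the TPM of mylpfb was 55.9%, 53.5% and 36.5% in the GO libraries and 62.6%, 60% and 47.8% in the control libraries.

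The heart light chains ran opposite to the fast ones in replicates 1 and 2. The heart regulatory chain myl7 had 14.4, 14.7 and 34.8 CPM in the GO libraries and 10.9, 10.4 and 39.4 CPM in the control libraries. The essential chain myl4, an atrial chain in mammals, had 26.6, 29.9 and 28.8 CPM in the GO libraries and 17.7, 17.8 and 42.2 CPM in the control libraries. Both rose in replicates 1 and 2, by log2 differences of 0.46 ± 0.15 and 0.67 ± 0.11, and both were lower in GO in replicate 3, at -0.18 and -0.55. The call of myl7 is lost without GO library 1, GO library 2 or control library 2, at adjusted p of 0.0563, 0.0963 and 0.113. The nonmuscle chain myl12.1 had 339, 352 and 332 CPM in the GO libraries and 329, 328 and 349 CPM in the control libraries, a difference of 0.07 in replicates 1 and 2 that did not pass edgeR's test (adjusted p = 0.0764), but did with the replicate block (adjusted p = 0.0416) and with library totals (adjusted p = 0.000703). The related chain myl12.2 had 30.9, 34.6 and 33.8 CPM in the GO libraries and 39.5, 39.1 and 34.2 CPM in the control libraries, and fell in replicates 1 and 2 by -0.26 ± 0.09, a call that is lost without GO library 1, control library 1 or control library 2 (adjusted p = 0.256, 0.0651 and 0.0747, edgeR). The chain myl6 had 36.9, 37.9 and 56.5 CPM in the GO libraries and 47.6, 47 and 48.4 CPM in the control libraries, falling by 0.34 in replicates 1 and 2, as the fast chains did, and its sign turned in replicate 3. By contrast, myl9b of the same class rose by 0.23 ± 0.05 in replicates 1 and 2 (adjusted p = 0.000242, edgeR). It was higher in GO in each pair, by 0.27 in replicate 3, while myl9a did not pass.

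Of the nonmuscle heavy chains, which drive contraction of the cell cortex, myh9a, myh9b and myh10 leaned upward and myh14 did not. For myh14 the log2 difference was 0.075 in replicates 1 and 2 (adjusted p = 0.476, edgeR), against -0.217 in replicate 3. The gene myh9b had 157, 153 and 253 CPM in the GO libraries and 94.3, 91 and 216 CPM in the control libraries. It was higher in GO in every pair, and the log2 difference of 0.74 ± 0.05 in replicates 1 and 2 was the largest of its class. Both myh9a and myh10 rose there as well, by 0.30 and 0.19, and were 0.09 and 0.27 higher in GO in replicate 3. The smooth-muscle chain myh11a had 15.5, 17.1 and 112 CPM in the GO libraries and 20.3, 20.2 and 118 CPM in the control libraries, which did not pass (adjusted p = 0.0573, edgeR). Smooth-muscle markers outside these families, among them acta2 and tagln, summed to 66.9, 66.9 and 317 CPM in the GO libraries and 94.8, 101 and 296 CPM in the control libraries. Of the 4 tested, 0 rose and 3 fell in replicates 1 and 2, beside 12.9% and 12% of all genes. The part of smooth muscle in these results was not tested.

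Sarcomeric actin was mostly 1 gene. The gene actc1b (gene ID 58114) was 90.1%, 90.1% and 88.2% of the TPM of the 4 actins in the GO libraries, and 90%, 89.9% and 88.8% in the control libraries. At a mean of 15371 TPM it was the highest of all members. It had 15773, 15638 and 8700.4 CPM in the GO libraries, against 16555, 16751 and 7671 CPM in the control libraries. Replicate 3 was the lowest library of each group, and the sign of the difference turned there, with -0.09 ± 0.01 in replicates 1 and 2 and 0.18 in replicate 3. The skeletal actin acta1b turned in the same way, with 1446, 1474 and 858 CPM in the GO libraries and 1677, 1712 and 708 CPM in the control libraries. The gene actc1a differed from both. It had 406, 387 and 231 CPM in the GO libraries and 298, 294 and 195 CPM in the control libraries, was higher in GO in each pair, and rose by 0.42 ± 0.03 in replicates 1 and 2. Its TPM relative to actc1b was 2.47%, 2.38% and 2.55% in the GO libraries and 1.73%, 1.69% and 2.44% in the control libraries. Actin paralogs are very similar in sequence, and actc1b, acta1b and actc1a had counts that were not whole, so the split between them is uncertain.

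Tropomyosin, which covers the binding sites on actin, was led by the fast gene tpma (gene ID 30324). Its share of tropomyosin TPM was 87%, 87% and 75.9% in the GO libraries and 90.3%, 90.4% and 74% in the control libraries. The genes tpm2 and tpm3, listed as slow, held 9.43%, 9.48% and 17.1% in the GO libraries and 7.55%, 7.31% and 18.4% in the control libraries. So in replicates 1 and 2 the share of tpm2 and tpm3 was higher in GO, and in replicate 3 it was higher in control. It is a share of these genes and no measure of slow fibres. The leading gene tpma had 6061, 6215 and 4395 CPM in the GO libraries, against 7079.9, 7258 and 4246 CPM in the control libraries. Counts of tpm2 were 338, 348 and 562 CPM in the GO libraries, against 300.3, 314 and 601 CPM in the control libraries. Those of tpm3 were 433, 443 and 561 CPM in the GO libraries, against 403, 382 and 597 CPM in the control libraries. In replicates 1 and 2 tpma fell by -0.22 ± 0.01 while tpm2 and tpm3 each rose by 0.16 ± 0.03. The heart gene tpm4a had 82.6, 75.2 and 123 CPM in the GO libraries and 54.8, 54.7 and 119 CPM in the control libraries, and rose by 0.52 ± 0.07. The shared gene tpm1 rose by 0.45 ± 0.05. In replicate 3 the differences of tpm4a and tpm1 were 0.05 and -0.22, and over 6 libraries 0.30 ± 0.38 and 0.12 ± 0.42.

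Troponin C, the calcium sensor, was mostly the fast form. The fast gene tnnc2 (gene ID 58082) had 3379.7, 3424 and 2425 CPM in the GO libraries, against 4361, 4391 and 2414 CPM in the control libraries. Among the called members of replicates 1 and 2 its adjusted p was the smallest, 1.33e-70, at a log2 difference of -0.36 ± 0.02, and in replicate 3 the groups differed by only 0.01. The slow tnnc1b fell by almost the same amount, -0.37 ± 0.04, so that the slow share of troponin C TPM was 9.47%, 9.3% and 12.4% in the GO libraries and 9.56%, 9.39% and 13.4% in the control libraries. That share did not follow the slow heavy chains in replicates 1 and 2. The heart gene tnnc1a had 0.92, 0.471 and 3.83 CPM in the GO libraries and 0.317, 0.237 and 4.24 CPM in the control libraries, a few counts in each replicate 1 and 2 library, and it did not pass.

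The inhibitory subunit troponin I came from 6 fast genes in 2 tandem rows, of which 1 gene dominated. The fast gene tnni2a.4 had 2151, 2157 and 1745 CPM in the GO libraries, against 2683, 2709 and 1768 CPM in the control libraries. It fell in replicates 1 and 2 by -0.32 ± 0.02. In the same row tnni2a.1 and tnni2a.2 went the other way, while tnni2a.3, at 2.96 to 4.95 CPM, was not called (0.20 ± 0.27). The gene tnni2a.1 had 25.9, 27.7 and 64.9 CPM in the GO libraries, against 13, 16.2 and 84.3 CPM in the control libraries. The gene tnni2a.2 had 29.6, 31 and 34 CPM in the GO libraries, against 20.1, 17.3 and 35.5 CPM in the control libraries. They rose in replicates 1 and 2 by 0.86 ± 0.12 and 0.71 ± 0.11, and neither did in replicate 3, where the log2 differences were -0.38 and -0.06. In TPM, tnni2a.1 was 1.2%, 1.28% and 3.7% of tnni2a.4 in the GO libraries and 0.48%, 0.593% and 4.75% in the control libraries. In the second row tnni2b.1 rose by 0.56 and tnni2b.2 fell by 0.27, and both turned in replicate 3, to -0.38 and 0.20. The heart gene tnni1b rose by 0.43 ± 0.16, against -0.03 in replicate 3 and 0.23 ± 0.28 over 6 libraries, and the slow genes tnni1c and tnni1d did not pass.

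Troponin T was mostly the fast tnnt3b and tnnt3a, with means of 4692 and 500.4 TPM, and both fell in replicates 1 and 2, by -0.28 and -0.20, against -0.04 and -0.09 in replicate 3 and -0.22 ± 0.22 and -0.18 ± 0.32 over 6 libraries. The heart gene tnnt2a had 7.08, 6.21 and 14.9 CPM in the GO libraries, against 4.64, 4.11 and 15.9 CPM in the control libraries. It rose in replicates 1 and 2 by 0.60 ± 0.22, but leaving out any 1 of the 4 libraries ends the call, with adjusted p of 0.0558 to 0.217. In each of the 3 troponin subunits the fast form had at least 86.4% of the TPM in all 6 libraries.

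Myosin-binding proteins sit on the thick filament. The gene mybphb averaged 605 TPM, above every C-protein of the rule, and had 826, 866 and 691 CPM in the GO libraries, against 901, 929 and 525 CPM in the control libraries. It fell by -0.11 ± 0.02 in replicates 1 and 2 and was 0.40 higher in GO in replicate 3. Without GO library 1 its call is lost (adjusted p = 0.0687, edgeR). The C-proteins of slow, fast and heart muscle showed no call in replicates 1 and 2. Under other settings mybpc2b did pass as higher in GO: at 0.187 without control library 2 (adjusted p = 0.048, edgeR), at 0.186 with library totals (adjusted p = 0.00645, edgeR) and at 0.342 on log2(TPM + 1) (adjusted p = 0.046, limma). The slow gene mybpc1 had 35.6, 38.7 and 50.6 CPM in the GO libraries and 34.5, 37.2 and 64.5 CPM in the control libraries. The fast gene mybpc2b had 93.8, 94.3 and 71.7 CPM in the GO libraries and 82.7, 88.4 and 96.7 CPM in the control libraries. The heart gene mybpc3 had 78.7, 72.1 and 112 CPM in the GO libraries and 78.3, 77.4 and 97.8 CPM in the control libraries. Of the 9 tested heart members, mybpc3 and the troponin gene tnnc1a were the ones not called in replicates 1 and 2, where the log2 difference of mybpc3 was -0.05 ± 0.06 and its replicate 3 difference was 0.20.

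The giant proteins differed little between groups in replicates 1 and 2. The titin gene ttn.1 had 1424, 1399.7 and 1645 CPM in the GO libraries and 1581, 1513 and 1628 CPM in the control libraries. The titin gene beside it, ttn.2, had 1028, 1027 and 1273 CPM in the GO libraries and 1097, 1050.2 and 1087 CPM in the control libraries. The nebulin gene neb had 921, 929.6 and 725 CPM in the GO libraries and 985, 952 and 506 CPM in the control libraries. All 3 fell in replicates 1 and 2, by -0.13, -0.06 and -0.06, and were higher in GO in replicate 3, by 0.02, 0.23 and 0.52. The calls of ttn.2 and neb are each lost when GO library 1, GO library 2 or control library 1 is left out, at adjusted p of 0.156 to 0.442 and 0.121 to 0.306 (edgeR). Per unit of TPM, neb was 381%, 392% and 246% of ttn.1 in the GO libraries and 362%, 366% and 162% in the control libraries, so that this ratio was lower in replicate 3.

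Of the caps of the thin filament, the skeletal-muscle tropomodulin tmod4 had a log2 difference of -0.23 ± 0.04 in replicates 1 and 2 and tmod1 one of 0.81 ± 0.24, both called. In replicate 3 these were 0.07 and 0.25, and over 6 libraries -0.14 ± 0.17 and 0.52 ± 0.49. The leiomodins lmod2b and lmod3, which seed actin filaments, did not pass. The members too low to be tested were myh6, myha, smyhc3, myh11b, tnni1a, nebl, lmod1b, lmod2a and tnni3k.

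Slow and cardiac TPM were also set against fast TPM within each library. The slow class held no myosin light chain, and tpm2 and tpm3 weighed heavily in its sum. The 11 unclassed members, with more summed TPM than the slow class in every library, were left out of these ratios. Slow TPM was 3.02%, 3.03% and 5.44% of fast TPM in the GO libraries, and 2.55%, 2.54% and 5.59% in the control libraries. Cardiac TPM was 0.458%, 0.455% and 0.987% of fast TPM in the GO libraries, and 0.289%, 0.281% and 1.02% in the control libraries. Replicates 1 and 2 were higher in GO in both ratios, replicate 3 was slightly lower, and the groups overlapped. The log2 ratio differed by 0.15 for slow to fast (p = 0.6) and 0.44 for cardiac to fast (p = 0.6, two-sided exact permutation test over the 6 libraries for each). With 3 against 3 libraries that test cannot go below 0.1. Without replicate 3 the differences were 0.25 and 0.68, where 2 against 2 cannot go below 0.333. Cardiac TPM was also 15.2%, 15% and 18.2% of slow TPM in the GO libraries and 11.3%, 11.1% and 18.3% in the control libraries (p = 0.4, same exact permutation test). With 3 ratios in the family, adjusted p-values are no smaller than these.

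**Figure D4:**
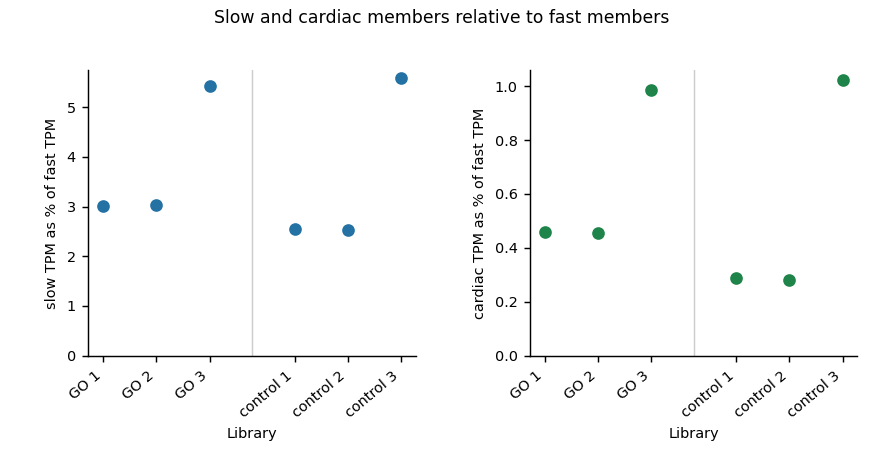
Summed TPM of slow members (left panel) and of cardiac members (right panel) as a percentage of the summed TPM of fast members, in each library, GO left and control right; axes start at 0. Replicate 3 is highest in both groups, at 5.44% and 0.987% in GO and 5.59% and 1.02% in control.

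Heart genes outside the rule were checked beside the cardiac members. The 10 genes, which include nppa, a heart hormone gene, and gata4, a heart and gut regulator, summed to 42.2, 39 and 126 CPM in the GO libraries and 31.9, 34.8 and 119 CPM in the control libraries. Of 9 tested, 1 rose (11.1%, beside 12.9% of all genes) and 0 fell in replicates 1 and 2. This share is no measure of the list, because some genes passed the level filter through replicate 3. In replicates 1 and 2 gata4 had 0 CPM and could not be called. There nppb had 0.237 to 0.736 CPM, and gata5 and gata6 had 1.2 to 2.37 CPM. The one that rose was nppa, with 6.26, 5.42 and 26.4 CPM in the GO libraries and 3.91, 2.92 and 21.1 CPM in the control libraries. For gata4 there were 0, 0 and 3.1 CPM in the GO libraries and 0, 0 and 4.83 CPM in the control libraries. The list sum was higher in replicate 3 of both groups, but unevenly by gene. The gene gata6 had 1.2, 2.04 and 29.7 CPM in the GO libraries and 2.11, 1.82 and 26.4 CPM in the control libraries. For gata5 these were 1.93, 2.04 and 15.6 CPM, and 1.27, 2.37 and 14.7 CPM. By contrast, tbx20 had 13.1, 11.8 and 10.7 CPM in the GO libraries and 10.7, 11.8 and 9.996 CPM in the control libraries. In the control libraries nkx2.5 had 1.27, 0.869 and 0.847 CPM. The sum is thus no measure of heart muscle alone. The part of heart tissue in the cardiac results was not tested.

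The replicates differed from each other by fibre class, as a description. In both groups the replicate 3 library was above all 4 other libraries for 8 of 9 cardiac, 7 of 11 slow and 8 of 12 smooth or nonmuscle members, beside 32.4% of all genes tested. It was below all 4 for 0 cardiac, 0 slow and 1 smooth or nonmuscle members, beside 31.1% of all genes. Fast members split, with 8 of 21 above and 11 below. The fast members above included myhb and tnni2a.1, and those below included myhz1.1, mylz3 and tnnc2. These counts include the fast myhc4 and the cardiac tnnc1a, which passed the level filter only through replicate 3. In replicates 1 and 2 myhc4 had 0.12 to 0.38 TPM and tnnc1a 0.31 to 1.4 TPM. In replicate 3 they had 2.88 to 3.2 and 5.56 to 6.05 TPM. Their place among the members above was thus set by the filter and is no result.

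Taken over all members, the difference between groups in replicates 1 and 2 did not carry over to replicate 3. Across the 76 tested members, which share libraries and so are not independent, the correlation of the 2 differences was -0.16, whereas pair 1 and pair 2 correlated at 0.83 over the same members. The correlation of replicates 1 and 2 with replicate 3 over all genes tested was 0.00242. By the mean of pairs 1 and 2, 28 members were higher in GO and then lower in pair 3 (36.8%, beside 24% of all genes), and 19 were the reverse (25%, beside 23.4%). Examples of the first kind are myhb, myl4 and tnni2a.1, and of the second neb, mybphb and acta1b.

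**Figure D5:**
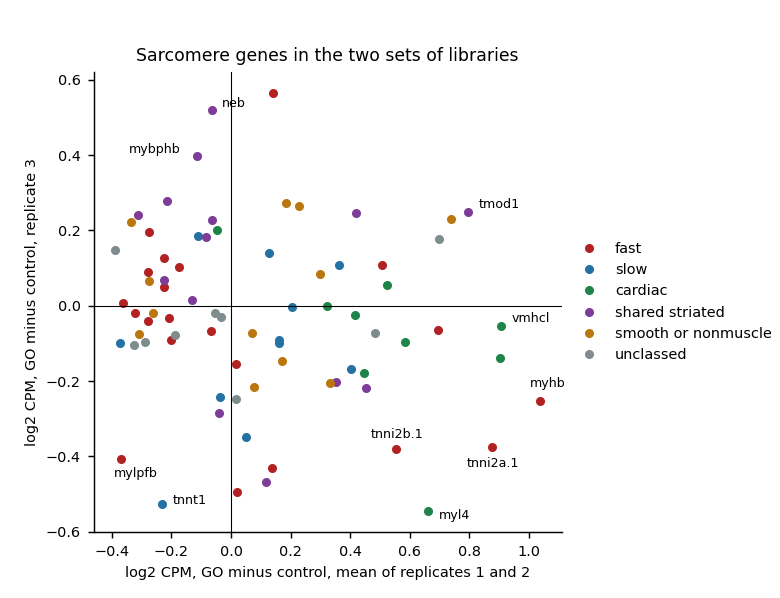
Difference of log2 CPM, GO minus control, of each of the 76 tested genes, as the mean of replicates 1 and 2 (x axis) against replicate 3 (y axis), coloured by class. Points are spread over all 4 quadrants (r = -0.16 across genes), with mylpfb and tnnt1 among those lower in GO on both axes and tmod1 higher on both.

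Other muscle genes were counted by lists chosen with earlier results of these data known. None was called over 6 libraries in any list. The lists differ in level: in GO library 1 the 15 energy-supply genes summed to 11836 CPM and the 16 myogenic regulators to 403 CPM. Small differences pass more easily at high counts, so the shares called are not like for like between lists or with all genes. In replicates 1 and 2, where 24.9% of all genes were called, the 15 energy-supply genes had 1 that rose and 9 that fell (66.7% called), with a median log2 difference of -0.11. The muscle creatine kinase ckma, which buffers ATP, had 3532, 3598 and 2695 CPM in the GO libraries, against 3752, 3832 and 2395 CPM in the control libraries. Its paralog ckmb had 4919, 4904 and 3593 CPM in the GO libraries, against 5266, 5307 and 2853 CPM in the control libraries. These 2 genes fell in replicates 1 and 2 and were higher in GO in replicate 3, as the fast light chain mylz3 was. The glycolytic pgam2 fell by 0.57 in replicates 1 and 2 and was 0.12 higher in GO in replicate 3.

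Of 30 tested genes of the Z-disc and M-band, which anchor thin and thick filaments, 6 rose and 8 fell in replicates 1 and 2 (46.7% called). The titin cap tcap rose with a log2 difference of 1.00 in replicates 1 and 2, and in replicate 3 it had 23.8 CPM in the GO library against 32.1 CPM in the control library. The Z-disc proteins ldb3b and myoz1b fell, by 0.23 and 0.29, and the Xin-repeat gene xirp1 and the intermediate filament desma rose, at 0.60 and 0.31. In replicate 3 these 4 differences were 0.11, -0.17, 0.24 and 0.03. Among 22 genes of excitation-contraction coupling, 4 rose and 5 fell (40.9% called). The calcium pump atp2a1 had 4068, 4061 and 3812 CPM in the GO libraries, against 3819, 3840.3 and 3337 CPM in the control libraries, and was higher in GO in each pair. The calcium store protein casq2, the cardiac form in mammals, rose at 0.40, and casq1a, of the skeletal form, fell by 0.18, against -0.11 and -0.07 in replicate 3.

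Of 15 genes of sarcomere assembly and turnover, 2 rose and 2 fell in replicates 1 and 2, a share of 26.7% that is near the 24.9% of all genes. The myosin chaperones unc45b and hsp90aa1.1 both rose at 0.34, with 0.84 and 0.81 in replicate 3, and unc45b had 27.5, 29.6 and 49.7 CPM in the GO libraries, against 25.5, 20.2 and 27.7 CPM in the control libraries. Its value was higher in GO in each pair, though GO library 1 lay below control library 3. Of 16 myogenic regulators, 4 rose and 1 fell, or 31.2%, likewise near that of all genes. The muscle stem cell regulator pax7b rose at 0.51 and myf5 fell by 0.81, both at levels under 13 CPM, and their replicate 3 differences were 0.09 and -0.13.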

How the data were processed

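RNA-seq libraries of 3 graphene oxide and 3 control samples were grouped by the treatment label and numbered by the title. Per the submitters' processing notes, Bowtie2 2.3.2 and GRCz11 were used; which program counted the reads, and whether by strand, is not given in the sources used here. The authors deposited, per row, expected counts (estimated counts that need not be whole), TPM and FPKM, normalized for length and depth per the file headers. Each table has 43106 rows; 5932 gene IDs stood on more than 1 row, 14 members among them, and rows were summed by gene ID. A count within 0.004 of a whole number was taken as whole, and 27 members had one that was not. Estimated counts divide reads among paralogs and, without strand, between overlapping genes.

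Expected counts were rounded. Genes with a mean of at least 1 FPKM were tested with edgeR 4.0.16 (R 4.3.3; TMM scaling, quasi-likelihood, Benjamini-Hochberg over 19313 genes, threshold 0.05), over all 6 libraries, over replicates 1 and 2, and with an interaction for replicate 3. CPM is TMM-scaled, and log2 CPM per library uses a prior count of 2. TPM served for levels between genes. Ratios had a two-sided exact permutation test (scipy 1.17.1). DESeq2 1.42.0 and limma 3.58.1 gave alternatives, limma on log2(value + 1), where a fold change understates that of low genes. Scripts ran in Python 3.11.15 with pandas 2.3.3 and matplotlib 3.10.9.

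Same-numbered libraries deviated from their group means together (r = 0.733, 0.745 and 0.866 for numbers 1, 2 and 3). Since replicate 3 of both groups stood apart, these values cannot tell whether number 1 matches number 1 rather than number 2. No correlation across unlike numbers was computed. Treating same numbers as pairs is thus an assumption for numbers 1 and 2. Blocked fits are given where they change a call. Replicates 1 and 2 of a group differed by more than sampling noise (chi-square per degree of freedom 1.56 in graphene oxide and 1.62 in control) and were kept as 2 libraries. This excess cannot tell separate animals from repeat libraries of the same material. A count of 0 allows 3 counts, or 0.231 to 0.308 CPM; the 95% Wilson interval of the members' share of counts in control library 1 was 8.75% to 8.79%. Both cover counting error only.

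Members and lists were chosen with earlier results of these data known. Values in all libraries are given for 38 members named by rule: the 3 of highest TPM in each class, the 6 largest called differences in each direction in replicates 1 and 2 at a mean of at least 10 CPM, and a set list of 18 family members. Others are named to complete a family or a count, after their values were seen. Genes most like the fast members in pattern are not named, since the libraries fall into separate sets. All 85 members were found in the reference gene table of assembly GRCz12tu, a different build, used for gene order only. That table lists vmhc, vmhcl, tnnc2 and tnni1al under other symbols. Sequences were not used here.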

Additional observations from a re-analysis of the deposited data

Results flagged for a closer look

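For 28 of the 37 named and tested members, the difference between graphene oxide and control in replicate 3 departed from that in replicates 1 and 2 in edgeR's test of the interaction, a count to read beside 39 of all 76 tested members and 14.2% of all genes. Each value is the replicate 3 log2 difference minus that of replicates 1 and 2, and replicate 3 is 1 library per group. Some members were named for the largest called differences in replicates 1 and 2, which are subtracted here. Naming by that difference favours a departure, so the share among named members is not a result about them.

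Among fast members the departure was upward for mylpfa (0.174), mylz3 (0.35), tpma (0.274), tnnc2 (0.369), tnni2a.4 (0.304) and myhz1.1 (0.276). It was downward for tnni2a.2 (-0.774), tnni2a.1 (-1.237), myhb (-1.3), myhz2 (-0.171) and mybpc2b (-0.566). Of these, tnni2a.1, tnni2a.2 and myhb rose in replicates 1 and 2 and were lower in graphene oxide in replicate 3.

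Cardiac members departed downward: tpm4a by -0.469, myl4 by -1.222, myl7 by -0.636, vmhcl by -0.967 and vmhc by -0.324. Slow members tpm2 (-0.256), tpm3 (-0.254) and mybpc1 (-0.399) went the same way, and tnnc1b (0.275) did not.

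Of 11 shared striated departures 8 were upward and 3 downward. Upward, among those named by rule, were actc1b by 0.266, acta1b by 0.494, mybphb by 0.51, ttn.1 by 0.147, ttn.2 by 0.289 and neb by 0.584. Downward, and not among the members named by rule, were tpm1 (-0.667), mybpha (-0.563) and actc1a (-0.175). Of the nonmuscle members, myl6 departed by 0.561 and myh9b by -0.511. Hepatocyte markers, summed, were 11399 and 10300.4 CPM in replicate 3 of graphene oxide and control, against 500.03 to 516 CPM and 1077 to 1106 CPM in the other libraries; their part in these departures was not tested.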

How the results depend on the processing

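Over 6 libraries the count of 0 members held under every setting run except DESeq2 with the replicate block (2 members); over all genes DESeq2 called 7 without and 63 with that block. The replicate block left 0 members and 0 genes in edgeR, called 53 members in replicates 1 and 2 (27 higher, 26 lower), and gave class medians of -0.11 (fast), 0.07 (slow), 0.26 (cardiac), 0.02 (shared striated) and 0.04 (smooth or nonmuscle); among the named members there it changed only the call of myl12.1 (adjusted p = 0.0416). Over replicates 1 and 2 the 52 members became 13 with limma on FPKM, 28 with limma on TPM, 9 at 1.5-fold and 39 with DESeq2 (18 higher, 21 lower; among the named members it ends the calls of myl7, tnnt2a, myl6, myl12.2, ttn.2 and neb, at adjusted p of 0.0715 to 0.385), and 43 to 48 without 1 library; with library totals the split was 30 higher and 22 lower. The 39 departures became 22 with DESeq2.

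Class medians of the difference in log2(mean TPM + 1) were 0.05 fast, 0.172 slow, 0.252 cardiac, 0.163 shared striated and 0.178 smooth or nonmuscle. For all genes the median was 0.13 on a slightly unlike measure, the difference of mean log2(TPM + 1). With replicates 1 and 2 alone, class medians in scaled CPM were 0.524 cardiac and 0.125 smooth or nonmuscle. Without 1 library they ran from -0.112 to -0.052 (fast), -0.19 to 0.247 (slow), -0.164 to 0.775 (cardiac), -0.031 to 0.056 (shared striated) and -0.101 to 0.35 (smooth or nonmuscle). In the slow, cardiac and smooth or nonmuscle classes the lowest value was without GO library 3 and the highest without control library 3. The slow to fast log2 difference ran from -0.13 to 0.531 and the cardiac to fast one from 0.065 to 1.049, by the same libraries.

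TPM over replicates 1 and 2 turned mylpfa to 0.007, actc1b to 0.129, mybphb to 0.102, myhz1.1 to 0.045, tnnt1 to 0.086, ttn.1 to 0.082, ttn.2 to 0.143, neb to 0.17 and mybpc3 to 0.158. FPKM turned neb to 0.008 and mybpc3 to 0.002, and library totals turned mybpc3 to 0.005. Without 1 library mybpc1 ran from -0.016 to 0.11 and mybpc3 from -0.112 to 0.017. The cause was not tested beyond the shift of the median gene. With few counts in each replicate 1 and 2 library, myh6 and tnnc1a are limited by depth there. In replicate 3 of GO and control, myh6 had 13.2 and 11.8 CPM and tnnc1a 3.83 and 4.24 CPM.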
